A study of Saccharomyces cerevisiae with 4 samples.

Results

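The genes HXK1, HXK2, GLK1 and EMI2 encode the hexose kinases of the budding yeast Saccharomyces cerevisiae. Each was read here by the probe set whose platform annotation gives that gene symbol alone, so there were 4 members, 1 probe set each, among 5656 genes named alone by a probe set. Strain ATCC 4126 was grown in rich YP medium holding galactose or glucose, and cells were harvested for total RNA when the optical density had reached 1.0. No mutation, drug or time course is given for either medium, and the labels do not say whether the arrays of a medium came from separate cultures. There were 2 Affymetrix arrays per medium, named here by medium and label letter as glucose A, glucose B, galactose B and galactose C. The p-values below therefore measure the spread between these arrays, which may be technical.

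A hexose kinase puts a phosphate from ATP onto the sugar as it enters the cell, which traps it and opens glycolysis. The hexokinases Hxk1 and Hxk2 accept glucose and fructose, while glucokinase, encoded by GLK1, accepts glucose but not fructose. Hxk2 is the main isozyme in cells growing on glucose and also has a role in glucose repression, together with the repressor Mig1. HXK1 and GLK1 are known as genes that cells express more when glucose is scarce. EMI2 is the paralog of GLK1 and was named for a role in early meiotic induction. Galactose takes another route. Galactokinase, encoded by GAL1, phosphorylates it, and the Leloir pathway turns the product into a glucose phosphate without any of the 4 kinases.

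The values are intensities on a linear scale, in array units. An intensity depends on the probes as well as on the transcript, so levels are compared here between arrays for 1 gene, and never between genes. The array medians lay between 108 and 117. The genes of galactose use went with the labels. GAL1 stood at 36.2 on glucose A, 40.4 on glucose B, 9927 on galactose B and 8965 on galactose C, a difference of 7.95 on the log2 scale (limma adjusted p = 0.00192), and GAL10, GAL7 and GAL2 also rose in galactose.

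HXK2 (YGL253W, chromosome VII), the main hexokinase gene of glucose-grown cells, had the lowest unadjusted p of the 4. It read 4143 on glucose A and 4245 on glucose B, against 1970.1 on galactose B and 2404 on galactose C. Both galactose arrays lay below both glucose arrays, and the arrays of each medium lay close together. The means were 2187 ± 307 in galactose and 4194 ± 72.5 in glucose (SD, n = 2 per medium here and below). HXK2 was 1.93-fold lower in galactose, where this and every fold between the media below comes from means of log2 values and so can differ from the ratio of the printed mean intensities. On the log2 scale the difference was -0.95 (SE 0.22, 95% interval -1.51 to -0.38). It had an unadjusted p of 0.00830 and did not pass over all probe sets (limma adjusted p = 0.305), 197 probe sets having a smaller p. In RNA of whole cultures, fewer cells with a transcript and less transcript per cell cannot be told apart.

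HXK1 (YFR053C, chromosome VI), the other hexokinase gene, was also lower in galactose but varied more. It stood at 4487 on glucose A and 3882 on glucose B, against 1877 on galactose B and 3578 on galactose C. Both galactose arrays lay below both glucose arrays, with galactose C close to the glucose level. The means were 2728 ± 1203 and 4184 ± 428, a 1.61-fold lower level in galactose (log2 -0.69, SE 0.37, 95% interval -1.65 to 0.27, limma adjusted p = 0.663). Without galactose C the log2 difference was -1.15 and without galactose B it was -0.22, and HXK1 did not pass in either case. HXK1 and HXK2 are paralogs, and the annotation does not say how far a probe set of one also reads the other.

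GLK1 (YCL040W, chromosome III), the glucokinase gene, had overlapping media. It read 7314 on glucose A, 5959.7 on glucose B, 5874 on galactose B and 9221 on galactose C. Galactose C was the highest array and galactose B the lowest, with both glucose arrays between them. The means were 7548 ± 2367 in galactose and 6637 ± 958 in glucose, a log2 difference of 0.16 (SE 0.30, 95% interval -0.63 to 0.94, limma adjusted p = 0.909). The interval holds differences of either direction. The difference was -0.17 without galactose C, 0.48 without galactose B and 0.01 without glucose B.

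A second probe set lists GLK1 together with YCL042W and was not counted as a member. It stood at 4786 on glucose A, 2443 on glucose B, 1669 on galactose B and 4943 on galactose C. It put galactose C highest and galactose B lowest, as the GLK1 probe set did, and the order of all 4 arrays was the same on both. Its log2 difference between the media was -0.25 (SE 0.63, limma adjusted p = 0.928), so the 2 probe sets differed in sign and neither passed.

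EMI2 (YDR516C, chromosome IV), the paralog of GLK1, had the widest spread among the members on the log2 scale. It stood at 1293 on glucose A, 895 on glucose B, 809 on galactose B and 2249.6 on galactose C. Both glucose arrays again lay between the galactose arrays. The means were 1529 ± 1019 and 1094 ± 281, a log2 difference of 0.33 (SE 0.55, 95% interval -1.11 to 1.76, limma adjusted p = 0.893). It was -0.41 without galactose C and 1.06 without galactose B, and it was 0.59 without glucose A and 0.06 without glucose B. The size and direction of the EMI2 difference thus depended on which galactose array was used.

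**Figure D1:**
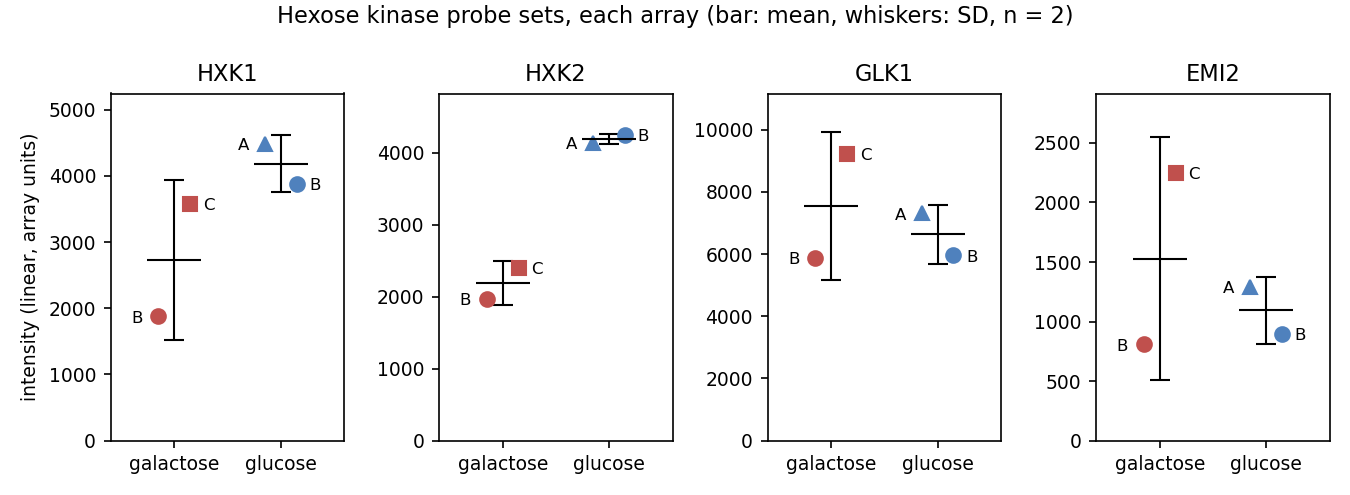
Intensity of each hexose kinase probe set on every array (linear scale from 0, points lettered by array, bars and whiskers for mean and SD of 2 arrays). HXK2 and HXK1 lay lower on both galactose arrays than on both glucose arrays, while the galactose arrays of GLK1 and EMI2 lay on either side of the glucose arrays.

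Across the array, 61 of 7302 tested probe sets passed (limma, adjusted p under 0.05), which is 0.835%, and 0 of the 4 members did. With any 1 array left out, 0 probe sets passed in limma, and 297 to 1276 had an unadjusted p under 0.05. At an unadjusted p under 0.05 there was 1 member, HXK2, where 8.61% of tested probe sets reached it (4.29% higher and 4.33% lower in galactose). HXK2 kept this level in some but not all fits with 1 array left out. Its log2 difference was -0.80 without galactose B, -1.09 without galactose C, -0.96 without glucose A and -0.93 without glucose B. HXK1 and HXK2, the 2 members lower on both galactose arrays than on either glucose array, compare with 22.1% of tested probe sets in that order. The 0 members in the opposite order compare with 17.0%. All 4 members lay above the floor of 18.5, to which lower intensities were raised before the test, on all arrays, and the 95% intervals of all but HXK2 held 0.

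**Figure D2:**
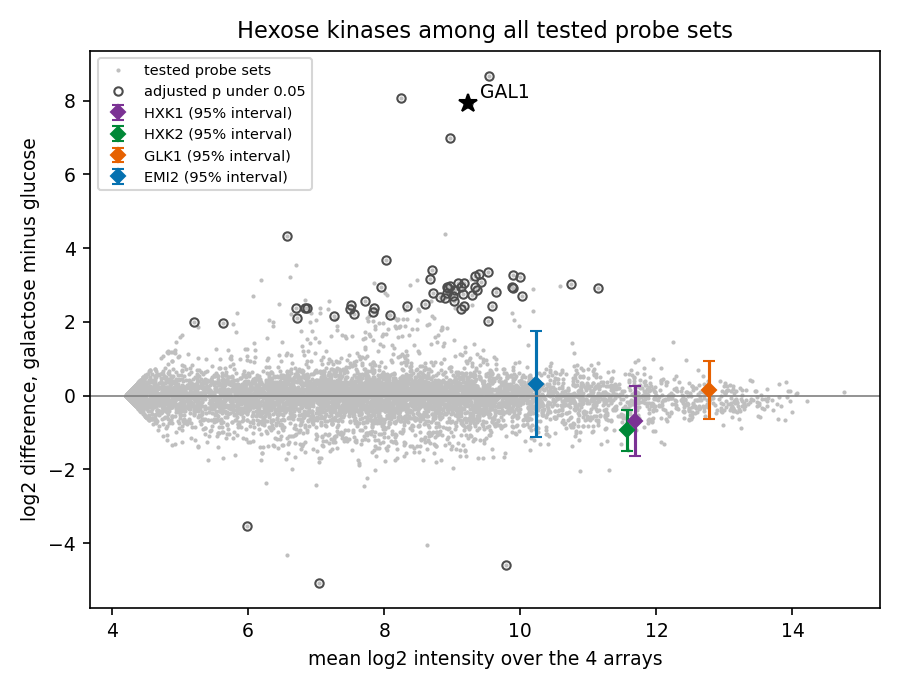
Log2 difference between the media (galactose minus glucose) against the mean log2 intensity over 4 arrays, for the tested probe sets, with circles for those that passed. The members lie within the main cloud, at -0.95 for HXK2, -0.69 for HXK1, 0.16 for GLK1 and 0.33 for EMI2, with whiskers for their 95% intervals, far from GAL1 at 7.95.

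Ratios taken on 1 array set the shifts of the members side by side without any scaling between arrays. Such a ratio shows unequal shifts of a pair of probe sets and is no ratio of transcript amounts. HXK2 over GLK1, the main hexokinase against glucokinase, was 0.566 on glucose A and 0.712 on glucose B, against 0.335 on galactose B and 0.261 on galactose C. It was thus lower on both galactose arrays, by 2.15-fold (log2 means -1.76 ± 0.26 and -0.65 ± 0.23). HXK1 over GLK1 was 0.319 and 0.388 in galactose, against 0.613 and 0.651 in glucose. This was 1.80-fold lower, and the separation of the media was wide beside the spread within each (log2 means -1.51 ± 0.20 and -0.66 ± 0.06).

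Against EMI2 the ratios of both hexokinases were lower in galactose as well. HXK2 over EMI2 was 2.44 and 1.07 on galactose B and C, and 3.20 and 4.74 on glucose A and B, a 2.42-fold lower ratio in galactose. HXK1 over EMI2 was 2.32 and 1.59 in galactose, and 3.47 and 4.34 in glucose, 2.02-fold lower. In each of these 4 ratios of a hexokinase to a glucokinase-type gene, both galactose arrays lay below both glucose arrays. How often the ratio of any other pair of probe sets does so was not determined. Among single tested probe sets, 22.1% had that order. HXK2 over EMI2 shifted by -0.68 on galactose B alone and by -1.87 on galactose C alone, so its size rests on the array.

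Within each paralog pair the media overlapped. HXK1 over HXK2 was 1.08 on glucose A and 0.914 on glucose B, against 0.953 on galactose B and 1.49 on galactose C (log2 difference 0.26). GLK1 over EMI2 was 7.26 and 4.10 in galactose, against 5.66 and 6.66 in glucose (log2 difference -0.17). Galactose B and galactose C shifted these ratios in opposite directions from the glucose mean. For HXK1 over HXK2 the shifts were -0.063 and 0.58, and for GLK1 over EMI2 they were 0.24 and -0.58.

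The 6 ratios were tested with an exact two-sided permutation test over the arrays, which with 2 arrays against 2 cannot give a p under 0.333. The 4 ratios of a hexokinase to GLK1 or EMI2 each had that smallest exact p (0.50 after Benjamini-Hochberg adjustment over 6). The exact p was 0.667 for HXK1 over HXK2 and 1.0 for GLK1 over EMI2. The ratios share members and arrays, so they are not independent of each other.

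**Figure D3:**
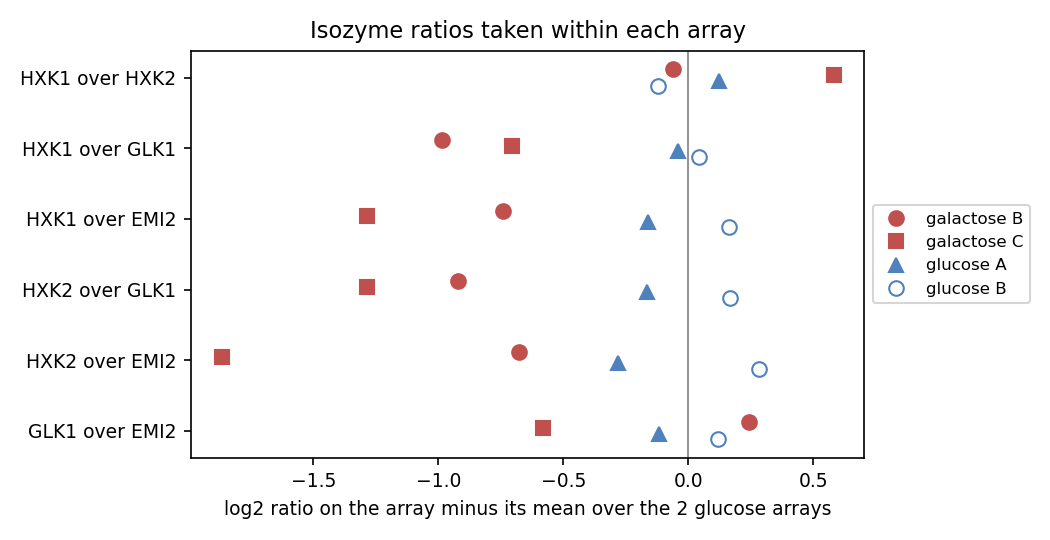
Log2 isozyme ratio on each array, as the difference from the mean of the glucose arrays, for the 6 pairs of members. In the 4 pairs that set HXK1 or HXK2 over GLK1 or EMI2 the galactose arrays lie between -0.68 and -1.87, left of both glucose arrays, while in HXK1 over HXK2 and GLK1 over EMI2 they lie on both sides.

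The gene of the kinase that phosphorylates galactose moved on another scale. The ratio of GAL1 to HXK2 was 476-fold higher in galactose than in glucose, and that of GAL1 to HXK1 was 397-fold higher. For GLK1 and EMI2 the ratio was 221-fold and 197-fold higher. GAL1 itself was 247-fold higher, at 9446 ± 680.2 against 38.3 ± 2.95.

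Of the 11 listed other kinases of sugars, polyols and sugar phosphates, 10 were tested, and GAL1 passed upward and 0 downward, where 0.794% and 0.0411% of tested probe sets passed. DAK2, for dihydroxyacetone kinase, lay under the floor on all arrays and was not tested. The median log2 difference of the 10 was 0.30, against -0.01 over all tested probe sets. By array it was 0.68 on galactose C and -0.13 on galactose B. NGK1 (YLR446W), a hexokinase relative known for phosphorylating N-acetylglucosamine, stood at 120.3 on glucose A, 74.4 on glucose B, 77.6 on galactose B and 203 on galactose C (limma adjusted p = 0.863). Its highest array was galactose C, followed by glucose A, as for EMI2. The phosphofructokinase genes PFK1 and PFK2, whose enzyme acts further down glycolysis, stood 1.13-fold and 1.31-fold lower in galactose (limma adjusted p = 0.863 and 0.694). PFK27, for one of the kinases that make the glycolytic activator fructose 2,6-bisphosphate, stood at 46.0 ± 23.4 in galactose and 127 ± 11.4 in glucose (limma adjusted p = 0.387).

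Enzymes that use or make hexose phosphates act next to the hexose kinases. Of the 13 listed, 12 had a probe set and 11 were tested, and 0 passed in limma either way (1, or 9.09%, at an unadjusted p under 0.05, higher in galactose, against 4.29% of tested probe sets). The median log2 difference was 0.02, and 0.22 without galactose B. PGI1, phosphoglucose isomerase, which takes glucose 6-phosphate into glycolysis, stood at 3705 ± 474 and 3867 ± 194. TPS1, which makes trehalose phosphate and whose product is known to inhibit hexokinase, stood at 4768 ± 2074 and 3221 ± 234 (limma adjusted p = 0.752). PGM2, phosphoglucomutase, which joins the galactose route to glucose 6-phosphate, lay higher on both galactose arrays than on both glucose arrays, at 8042 ± 3068 and 3959.5 ± 201 (limma adjusted p = 0.533).

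A list of 18 genes covered proteins that act with Hxk2 in glucose signalling, or in the glucose sensing pathway beside it. It also held the hexose transporter genes HXT1 and HXT3. Of the 18, 0 passed in limma in either direction, and 4 (22.2%) had an unadjusted p under 0.05, all lower in galactose, against 4.33% of tested probe sets. These 4 were MIG2, STD1, HXT1 and HXT3. MIG2 and HXT1 lay under the floor on both galactose arrays and were tested only through their glucose arrays. Both galactose arrays lay below both glucose arrays for 7 of the 18 (38.9%, against 22.1% of tested probe sets) and above for 1 (5.56%, against 17.0%). MIG2 and HXT1 are among the 7 as well as the 4. With galactose at the floor they could only come out lower there, so neither count draws support from them. The median log2 difference of the list was -0.09, or -0.34 without galactose C. MIG1, the repressor that acts with Hxk2, stood at 53.6 ± 4.13 in galactose and 72.6 ± 10.8 in glucose (limma adjusted p = 0.664). Its relative MIG2 lay under the floor on both galactose arrays and at 36.9 and 58.7 on the glucose arrays, at least 2.52-fold lower (limma adjusted p = 0.203). REG1 and GLC7 encode the phosphatase that acts against the Snf1 kinase. REG1 stood at 501 ± 50.9 and 516 ± 103, and GLC7 at 843 ± 272 and 1065 ± 34.9 (limma adjusted p = 0.980 and 0.767). SNF1 stood at 266 ± 80.9 and 331 ± 67.2, and TDA1, for a kinase known to phosphorylate Hxk2, at 522 ± 293 and 399.6 ± 147 (limma adjusted p = 0.803 and 0.889). RGT1, a repressor of the hexose transporter genes, had nearly the same level on all arrays, from 773 to 796.

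The largest difference in this group was that of STD1, for a partner of Rgt1, at 105 ± 49.2 in galactose and 464 ± 12.8 in glucose (4.67-fold lower, limma adjusted p = 0.165). The low-affinity transporter gene HXT3 was 3.09-fold lower (338 ± 52.7 against 1072 ± 370.1, limma adjusted p = 0.236). Among 10 tested hexose transporter genes, GAL2 passed upward and HXT2 and HXT4 passed downward. Over all tested probe sets, 0.794% passed upward and 0.0411% downward. GAL2 is also one of the genes that served to check the labels. HXT4 was 33.6-fold lower (limma adjusted p = 0.0210) and HXT2 24.4-fold lower (limma adjusted p = 0.0362), against 1.93-fold for HXK2. HXT2 did not pass where the test was kept to probe sets that name 1 gene (adjusted p = 0.0774). HXT6 and HXT7, which are nearly identical and cannot be read apart, stood 2.48-fold and 2.39-fold lower (limma adjusted p = 0.237 and 0.333).

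The arrays of 1 medium differed from each other for 3 of the 4 kinases, and in the same order. HXK1 was 1.91-fold higher on galactose C than on galactose B and 1.16-fold higher on glucose A than on glucose B. GLK1 was 1.57-fold and 1.23-fold higher. EMI2 was 2.78-fold and 1.44-fold higher. A larger gap between the galactose arrays was found for 14.8% of tested probe sets beside HXK1, 28.5% beside GLK1 and 3.82% beside EMI2. Between the glucose arrays these shares were 56.1%, 42.9% and 18.8%, so the glucose gaps of HXK1 and GLK1 were ordinary. HXK2 was 1.22-fold higher on galactose C and 1.02-fold higher on glucose B, so it did not share the order within glucose. Galactose C above galactose B together with glucose A above glucose B was found for 29.4% of tested probe sets.

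Gene lists differed between the arrays of 1 medium as well. All 18 listed genes known to be repressed by glucose, among them PCK1 of gluconeogenesis and the transporter genes HXT6 and HXT7, had galactose C above galactose B and glucose A above glucose B. Relative to the glucose mean their median was 0.67 on glucose A, -0.67 on glucose B, 0.60 on galactose C and -0.72 on galactose B. In these medians the arrays labelled B thus stood together at a low level and the other arrays at a high one. Single genes could differ from the medians. HXT6 stood at 6439 on glucose B and 3386 on galactose C. For 3 of the 18 (16.7%, against 22.1% of tested probe sets), HXT6 and HXT7 among them, both galactose arrays lay below both glucose arrays. The media overlapped for 15. Between the media the median was -0.04, or 0.59 without glucose A and -1.04 without glucose B, and 0 of 18 passed in limma (3, or 16.7%, at an unadjusted p under 0.05, all lower in galactose, against 4.33% of tested probe sets). EMI2 had a smaller gap within glucose (0.53) than the median of this list (1.34), but a larger one within galactose (1.48 against 1.26). HXK2 had almost no gap within glucose. PCK1 stood at 6755 on glucose A, 1854 on glucose B, 1809 on galactose B and 3142 on galactose C.

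Of 24 listed stress and storage genes known to rise when protein kinase A is less active, 21 had the same order. Their median was 1.05 on galactose C and -0.07 on galactose B, beside 1.06 and -0.41 for EMI2 and 0.48 and -0.17 for GLK1. HSP12, for a membrane stress protein, stood at 13828 on galactose B and 20087 on galactose C, and at 16597 on glucose A and 13850 on glucose B. Of the 30 ribosome biogenesis genes, 0 had the order of HXK1, GLK1 and EMI2. All 30 lay lower on galactose C than on galactose B, and most, though not all, lay lower on glucose A than on glucose B. Their medians were -1.90 on galactose C and -0.51 on galactose B. GAR1, which modifies ribosomal RNA, stood at 1981 and 1118 in galactose, and at 3563 and 3779 in glucose. In limma 0 of 24 and 0 of 30 passed, with 1 stress gene (4.17%) higher and 7 ribosome biogenesis genes (23.3%) lower in galactose at an unadjusted p under 0.05, against 4.29% and 4.33% of tested probe sets. The part of these differences between arrays in the values of HXK1, GLK1 and EMI2 was not tested, and how much sugar was left in each culture is not known here.

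**Figure D4:**
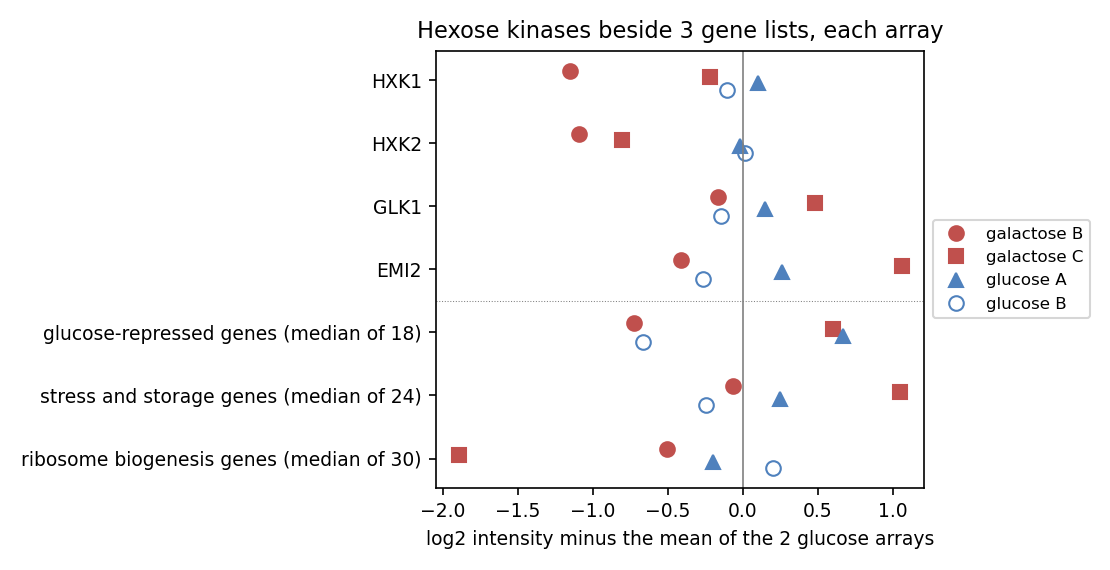
Log2 intensity on each array minus the mean of the glucose arrays, for the 4 members and for the medians of 3 gene lists. Galactose C lies above galactose B for all 4 members and for the glucose-repressed and stress lists, and below it for ribosome biogenesis; HXK2 is the member whose glucose arrays nearly coincide.

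**Figure D5:**
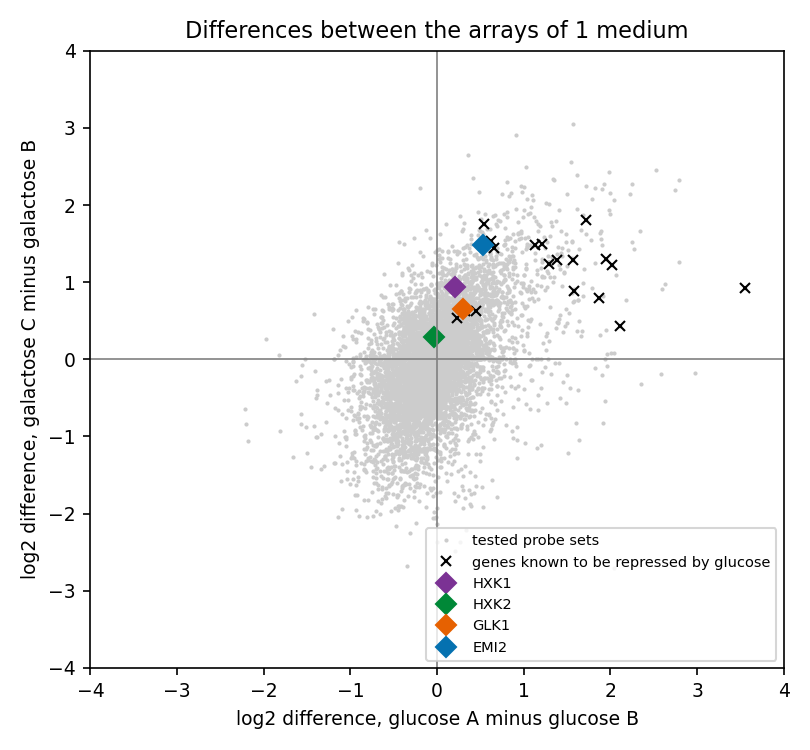
Log2 difference between the galactose arrays (C minus B) against that between the glucose arrays (A minus B), for the tested probe sets, 4 of which lie outside the axes. EMI2 lies at 1.48 and 0.53, HXK1 at 0.93 and 0.21, GLK1 at 0.65 and 0.30 and HXK2 at 0.29 and -0.04, and all 18 glucose-repressed genes (crosses) lie in the upper right, above 0 on both axes.

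The genes with the most similar pattern differed between the members. Likeness was measured as the root mean square difference between log2 profiles over the 4 arrays, each taken from its own mean, among probe sets that name 1 gene and lie above the floor on all arrays. With only 4 arrays many genes come close, so these names are a description. For HXK2 the nearest were SKS1 (0.04), for a protein kinase, RSM24 (0.07), for a mitochondrial ribosomal protein, and YKL033W-A (0.08). SKS1 stood at 153 and 188 in galactose, and at 337 and 356 in glucose.

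For HXK1 the nearest were MRPL32, PET117 and MRPL38, each at 0.02, of which MRPL32 and MRPL38 encode mitochondrial ribosomal proteins and PET117 a protein of cytochrome oxidase assembly. MRPL32 stood at 525 and 1042 in galactose and at 1290.1 and 1103 in glucose, with the arrays in the same order as for HXK1. For GLK1 the nearest were FMS1 (0.02), for a polyamine oxidase, TGL2 (0.03), for a lipase, and YER158C (0.03). For EMI2 they were JEN1 (0.05), for the lactate permease, NNR2 (0.06), for a nucleotide repair enzyme, and CYB2 (0.06), for lactate dehydrogenase. JEN1 stood at 2688 on glucose A, 1750.3 on glucose B, 1659 on galactose B and 4803 on galactose C. JEN1 and CYB2 are also on the list of glucose-repressed genes. The distance between the paralogs HXK1 and HXK2 was 0.28 and that between GLK1 and EMI2 was 0.31, while HXK2 and EMI2 were farthest apart among the members, at 0.79. Many genes lay closer than a paralog in this search of 5628 probe sets. HXK2 ranked 265 from HXK1, and HXK1 ranked 255 from HXK2. EMI2 ranked 2147 from GLK1, and GLK1 ranked 459 from EMI2.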

How the data were processed

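The deposited values are linear intensities that the authors had already summarised to 1 value for each probe set of an array. Their software, background correction and scaling are not stated with them. After 60 array controls were left out, 9275 probe sets remained. The platform annotation names 1 gene for 6504, several for 328 and none for 2443, and all 6504 matched the RefSeq gene table of assembly R64 by gene number. The files name no genome build, and no coordinates are printed.

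Arrays were not rescaled, since their medians differ by a factor of 1.08, under the limit of 1.1. The floor was 18.5, the 25th percentile over all arrays together, and lower values were raised to it before the log2 step. Of the probe sets, 1973 never exceeded the floor and 7302 were tested. Media were compared with limma 3.58.1 in R 4.3.3 (lmFit, eBayes with an intensity trend, 2 residual and 4.73 total degrees of freedom) and Benjamini-Hochberg adjustment over all 7302, with a threshold of 0.05. Means and SDs are of intensities before the floor. Ratios are of floored intensities on 1 array. The limma fit was tried on simulated data. Exact permutation tests used scipy 1.17.1.

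The members, gene lists and tests were chosen with earlier results of these data known. Each list gene is read by its brightest probe set that names it alone. All genes of the kinase and Hxk2 lists could be named, and from other lists those that passed and the 3 brightest; the 3 nearest patterns were named for each member. The alternatives were scaling by quantiles or to 1 median, other floors (10th or 40th percentile, or none), stricter probe set filters, eBayes without trend or robust, and each array left out.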

Additional observations from a re-analysis of the deposited data

How the results depend on the processing

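None of the 4 kinases passed in any of the 13 alternatives. HXK2 and HXK1 were lower in galactose in all 13, but most of the 13 could not have changed this direction. The 10th and 40th percentile floors, the probe set filters and the eBayes variants left both log2 differences as they were. Only the scalings and the test without a floor moved them among the 9 other settings below. The media did not overlap for either gene, so no fit with 1 array left out could reverse the sign. HXK2 ran from -0.95 to -0.88 on the log2 scale over 9 other settings (adjusted p from 0.249 to 0.606) and from -1.09 to -0.80 with 1 array left out. HXK1 ran from -0.69 to -0.64 and from -1.15 to -0.22. GLK1 (0.16) and EMI2 (0.33) changed sign when galactose C was left out, at -0.17 and -0.41, and with 1 array left out they ran from -0.17 to 0.48 and from -0.41 to 1.06. The ratios within the paralog pairs also changed sign without galactose C. HXK1 over HXK2 (0.26) went to -0.063, with a range of -0.063 to 0.58, and GLK1 over EMI2 (-0.17) went to 0.24, with a range of -0.58 to 0.24. The other 4 ratios kept their direction in 9 of 9 alternatives, but most of these could not have changed it. Scaling to 1 median cancels within an array, and all members lay above the other floors. Since these ratios separated the media fully, leaving out 1 array could not turn them round. The count of probe sets called, 61, was 28 under quantile normalization and 36 where the 10th percentile was the floor. It was 6 where only probe sets of 1 gene were tested and 0 with any 1 array left out, where 297 to 1276 had an unadjusted p under 0.05 (limma). Leaving out an array leaves 1 residual degree of freedom, and the lone array is then assumed to vary like the others. No paired analysis was possible because the media share only the letter B. The number of arrays limits every value.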

Other observations

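A pair of genes used for growth on ethanol and acetate differed widely between the glucose arrays. ADH2, the alcohol dehydrogenase gene of ethanol use, stood at 2495 on glucose A and 213 on glucose B, an 11.7-fold gap, and at 180.2 and 342 on galactose B and galactose C. ICL1, isocitrate lyase of the glyoxylate cycle, stood at 3626 on glucose A and 838 on glucose B, a 4.33-fold gap, and at 1495 and 2013 in galactose. Both genes were chosen after their values were seen. HXK2 had nearly the same intensity on these glucose arrays, at 4143 and 4245, and EMI2 a 1.44-fold gap. There is 1 array for each of these values and no test.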
